A study of Mus musculus with 250 samples.

Results

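Nnat and 9 other imprinted genes were followed through single cells of the mouse brain: Nnat, Meg3, Peg3, Ndn, Snrpn, Plagl1, Grb10, Impact, Zrsr1 and Sgce. They were chosen by name from the 24490 gene rows of the deposited count table, as genes known to be imprinted and not for a measured value, except that the wide spread of Nnat in these cells was already known. The 250 cells, titled brain astrocytes, came from C57BL/6 adult mice of about 3 months that all carried SM22-Cre with Rosa26-stop-tdTomato, so there was no other genotype and no treatment. In this allele pair Cre, driven by the promoter of a smooth muscle gene, removes a stop in front of a red fluorescent protein. The cells were sorted by fluorescence into 384-well plates and read as full-length cDNA by Smart-seq2, which has no molecular identifiers. In the header row each cell name begins with Brain.VSMC3 or Brain.VSMC2, where VSMC is usually short for vascular smooth muscle cell. The 88 cells of the first kind are called plate 3 below, and the 162 of the second kind plate 2. No animal is named, so the cells form 1 group without known replicates, and no test or p-value was computed over cells.

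An imprinted gene is read mainly from the copy inherited from 1 parent, because DNA methylation set in the egg or sperm marks a control region near it. Many imprinted genes act in growth, metabolism and brain development, and several lie in clusters whose members are controlled together. Of the 10 genes, Meg3 is read from the maternal copy, Grb10 from the maternal copy in most tissues and from the paternal copy in neurons, and the other 8 from the paternal copy. All mice were labelled as 1 inbred strain and the table does not separate parental copies, so imprinting itself was not measured.

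Plate 3 held 32255811 counted reads, with 116316 to 564958 per cell and a median of 391072. Plate 2 held 40517737 reads, with 102161 to 376718 per cell and a median of 256247. The astrocyte label held against its markers: 7 to 11 of 11 astrocyte markers were detected in each cell of plate 3 and 8 to 11 in each cell of plate 2. The mural markers that the Brain.VSMC header names would call for were few, with a median of 1 of 6 per cell on plate 3 and 0 of 6 on plate 2. At least 1 of 8 neuron markers, mainly Stmn2 and Snap25, was detected in 51 of 88 cells on plate 3 and in 70 of 162 on plate 2, and 3 or more in 1 cell of plate 3 and 3 cells of plate 2. Oligodendrocyte markers were the most common of another type, with at least 1 of 8 in 76 of 88 cells on plate 3 and 153 of 162 on plate 2, and 3 or more in 5 and 26 cells. At least 1 of 5 markers of their precursors was found in 67 and 122 cells. Levels are in CPM, a gene's count over the cell's total count, scaled to 1000000. Detection means at least 10 CPM.

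Nnat codes for neuronatin, a small membrane protein of the endoplasmic reticulum, and lies on chromosome 2 at 157560078 to 157562522 on the plus strand (GRCm38), wholly within its opposite-strand host gene Blcap. The promoter windows of Nnat, Peg3 and Ndn are shown because these paternally read genes start in CpG-containing DNA yet had different detection in the same cells. Each runs from 250 bases before to 50 after the start of the RefSeq transcript (GRCm38.p6), 5′ to 3′ on the gene's strand, with every CpG in capitals.
Nnat, chr2:157559828-157560127, plus strand: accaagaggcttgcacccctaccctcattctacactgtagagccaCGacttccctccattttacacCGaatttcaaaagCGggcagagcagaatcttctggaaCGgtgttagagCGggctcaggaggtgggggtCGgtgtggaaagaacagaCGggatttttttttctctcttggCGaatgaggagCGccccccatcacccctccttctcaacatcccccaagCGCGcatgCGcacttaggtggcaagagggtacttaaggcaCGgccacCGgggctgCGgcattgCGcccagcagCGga
Peg3, chr7:6730370-6730669, minus strand: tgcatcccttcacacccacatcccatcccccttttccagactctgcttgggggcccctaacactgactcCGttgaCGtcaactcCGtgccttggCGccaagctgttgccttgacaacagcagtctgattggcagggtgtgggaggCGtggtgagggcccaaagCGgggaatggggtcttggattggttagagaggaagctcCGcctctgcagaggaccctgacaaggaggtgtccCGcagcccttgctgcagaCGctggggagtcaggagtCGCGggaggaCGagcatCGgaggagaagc
Ndn, chr7:62348027-62348326, plus strand: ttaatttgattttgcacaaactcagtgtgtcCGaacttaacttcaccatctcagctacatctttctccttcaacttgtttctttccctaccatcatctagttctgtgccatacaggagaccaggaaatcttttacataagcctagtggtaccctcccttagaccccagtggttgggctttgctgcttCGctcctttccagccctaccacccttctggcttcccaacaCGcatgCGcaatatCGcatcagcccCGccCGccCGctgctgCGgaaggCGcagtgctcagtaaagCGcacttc
The Nnat window held 17 CpG, the Peg3 window 13 and the Ndn window 11, beside a median of 7 and quartiles of 3 and 20 over 32851 windows of all genes. Windows were at hand for 8 of the 10 genes, 13 windows in all, with the count for Grb10 at 45 in 1 window and 9 in another, for Plagl1 at 26 and for Zrsr1 at 10. The Meg3 windows held 13 and 1, and the 4 Snrpn windows 2, 3, 4 and 7, so that 5 of the 13 windows were at or under the median of all. GGGGCCCC, a sequence that the Plagl1 protein is known to bind, reads the same on both strands and was found in the Peg3 window but in no other of the 13, and in 354 of the 32851 windows (1.08%). A match describes these letters and not binding, and methylation was not measured.

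By the GENCODE M21 annotation (GRCm38), Peg3 lies on chromosome 7 at 6703892 to 6730431 on the minus strand and Ndn at 62346569 to 62350262 on the plus strand, where it is a single exon. Snrpn, in the same domain as Ndn, runs from 59982495 to 60140219 on the minus strand. Meg3 is a noncoding gene on chromosome 12 at 109541001 to 109571726 and Plagl1 a coding gene on chromosome 10 at 13060504 to 13131694, both on the plus strand. Chromosome 11 holds Grb10 at 11930508 to 12038683 on the minus strand and Zrsr1, again 1 exon, at 22972005 to 22976496 on the plus strand. Sgce lies on chromosome 6 at 4674350 to 4747207 on the minus strand and Impact on chromosome 18 at 12955852 to 12992950 on the plus strand.

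Nnat was the 1 gene of the 10 detected in at least 50% of all cells, and its level spread widely between cells on both plates. On plate 3 the lowest cell had 0 CPM, the median 195 CPM with quartiles of 6.46 and 1439 CPM, and the highest 5675 CPM, and the mean was 792 ± 1114 CPM (SD over cells, n = 88). On plate 2 the lowest cell had 0 CPM, the median 1068 CPM with quartiles of 158 and 2391 CPM, and the highest 9347 CPM, and the mean was 1562 ± 1695 CPM (n = 162). The cells of the plates overlapped over the whole range of plate 3, while the middle of the distribution lay lower there. Nnat was detected in 63 of 88 cells on plate 3 (71.6%, 95% exact binomial interval 61.0 to 80.7%) and in 130 of 162 on plate 2 (80.2%, 73.3 to 86.1%), intervals that overlap and cover counting error only. No Nnat read was found in 15 cells of plate 3 and 21 cells of plate 2. A further 9 cells of plate 3 and 4 of plate 2 lay between 10 and 100 CPM. As a background, 969 of the 16367 genes with reads (5.92%) passed 50% of cells and 45.3% passed 10%, where 1 and 6 of the 10 imprinted genes passed.

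**Figure D1:**
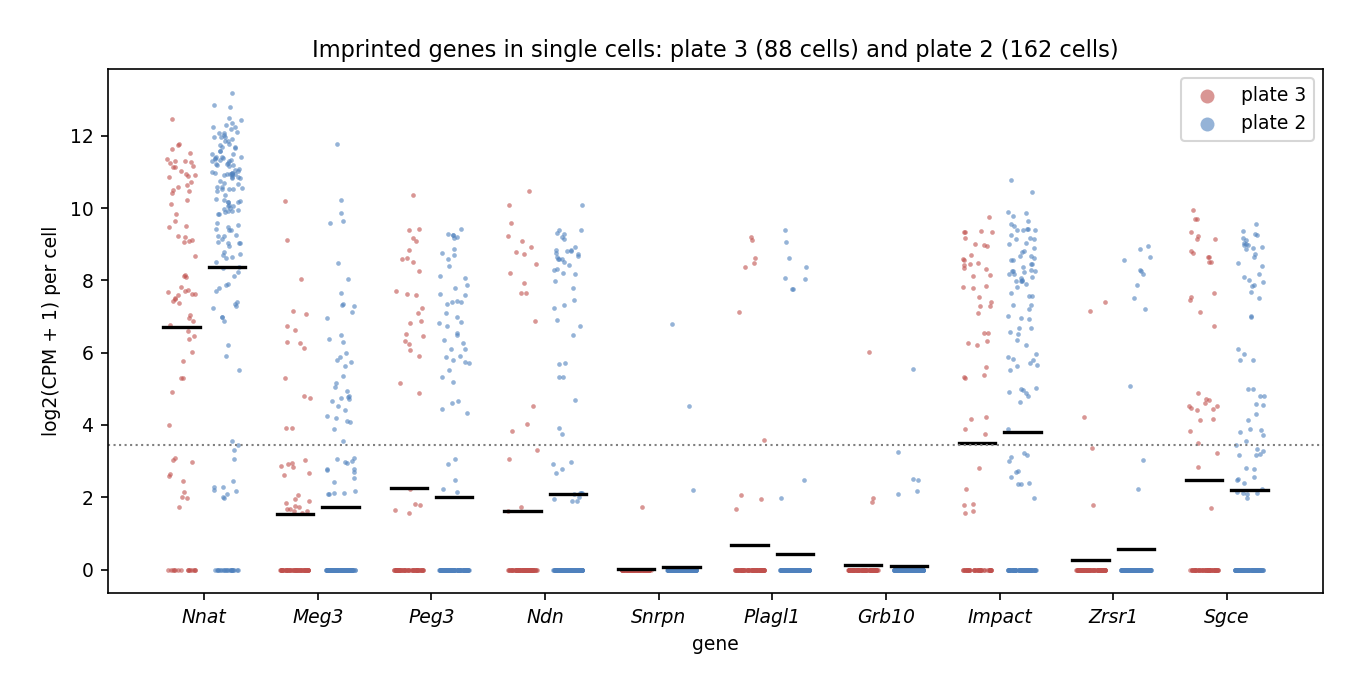
Level of each of the 10 imprinted genes in each cell, as log2(CPM + 1), with plate 3 (88 cells) left of plate 2 (162 cells); each point is a cell, the black line is the mean of the log values and the dotted line marks 10 CPM. Nnat cells fill the range from 0 to a highest cell of 5675 CPM on plate 3 and 9347 CPM on plate 2, while for each of the other 9 genes except Impact most cells lie at 0.

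Among the other membrane and signalling genes, Sgce, which codes for a sarcoglycan of the dystrophin-associated complex, was seen in a minority of cells. Its cells ran from 0 through a median of 0 to 979 CPM on plate 3 and from 0 through a median of 0 to 757 CPM on plate 2. The plates overlapped over nearly all of that range, with means of 96.6 ± 215 and 71.3 ± 166 CPM. Detection of Sgce reached 31 of 88 and 44 of 162 cells. Grb10, an adaptor that restrains insulin and growth factor receptor signalling, was almost absent. It had 20 reads over plate 3 and 15 over plate 2, with 1 cell detected on each plate, at 64.5 and 45.8 CPM, and those cells held 90.0% and 60.0% of its reads.

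The regulators of transcription and growth were also seen in a minority of cells. Peg3, a large zinc finger protein gene, had a mean of 83.3 ± 204 CPM on plate 3 and 57.9 ± 140 CPM on plate 2, with a median of 0 on each and highest cells of 1312 and 684 CPM. Its detection was 25 of 88 cells (28.4%) and 44 of 162 cells (27.2%), nearly the same share. Ndn, which codes for necdin, a growth-restraining protein studied mostly in neurons, had almost the same mean on the plates, 82.4 ± 236 CPM on plate 3 and 82.8 ± 184 CPM on plate 2. Its median was 0 and its highest cells had 1423 and 1084 CPM, in a pattern of many empty cells and a few strong ones. Where Ndn was detected, in 17 of 88 and 40 of 162 cells, the median of those cells was 351 CPM on plate 3 and 354 CPM on plate 2. Plagl1, a zinc finger transcription factor gene, was found in 7 of 88 cells (7.95%) and 8 of 162 cells (4.94%), with means of 27.1 ± 107 and 17.9 ± 85.5 CPM. Its detected cells were not faint, with medians of 358 and 299 CPM.

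Impact, which codes for a protein that restrains the translation-stress kinase Gcn2, was the second most often detected of the 10. Its cells ran from 0 through a median of 2.26 to 859 CPM on plate 3 and from 0 through a median of 5.56 to 1758 CPM on plate 2, with means of 126 ± 205 and 161 ± 279 CPM. Nearly equal shares of the plates carried it, 40 of 88 cells (45.5%, 34.8 to 56.4%) and 76 of 162 cells (46.9%, 39.0 to 54.9%). At a threshold of 1 read it was present in 53.2% of all cells, and 2 of the 10 genes then passed 50%.

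The last 3 genes act as RNA or in splicing. Meg3 is a long noncoding RNA of the Dlk1-Dio3 domain, read from the maternal copy. Its mean was 32.7 ± 141 CPM on plate 3 and 60.1 ± 309 CPM on plate 2, with a median of 0 on each. Its cells numbered 15 of 88 (17.0%) and 38 of 162 (23.5%), mostly between 10 and 100 CPM. Single cells carried much of it. The cell with the most Meg3 reads held 27.5% of them on plate 3 and 40.5% on plate 2, and the cells of highest level had 1166 and 3471 CPM. With those of highest level left out, the means were 19.6 CPM on plate 3 and 38.9 CPM on plate 2. With the 121 cells that had a neuron marker left out, the means were 12.7 and 30.4 CPM, and over both plates 25.3 CPM, against 50.5 CPM in all cells; the part of neuronal RNA in this level was not tested. The highest Meg3 cell of plate 2 had 8 of 11 astrocyte markers and 1 neuron marker, at 17.4 CPM.

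Zrsr1, an intronless gene for a protein related to a splicing factor, was rare and was the gene that differed most between the plates. It was detected in 3 of 88 cells (3.41%) on plate 3 and 11 of 162 cells (6.79%) on plate 2, with means of 3.88 ± 23.5 and 20.1 ± 82.3 CPM and highest cells of 169 and 497 CPM. Detected cells of plate 3 were thus within the range of plate 2. Zrsr1 lies inside its host gene Commd1 on the opposite strand, with 412 bases of exon in common, so reads there cannot be told apart without strand. Snrpn, which codes for a splicing protein made in neurons and heart, had next to no reads. Its counts stand in 3 rows with numbered suffixes, which were summed: 1 read over plate 3 and 19 over plate 2, of which 14 came from 1 cell. It was detected in 0 of 88 cells, which allows a share of up to 3.41% by 3 counts of 88 and of up to 4.11% by the exact binomial interval, and in 2 of 162 cells (1.23%). Reads of Snrpn and its close relative Snrpb, detected in 29.5% of cells of plate 3 and 34.6% of plate 2, could be confused, as could those of Zrsr1 and Zrsr2 at 5.97 and 10.2 CPM, and how such reads were counted is not given. Snurf, whose exons lie wholly within Snrpn's on the same strand, had no reads. Snrpn exons also share 589 bases (27.3%) with Gm38393 on that strand. Whether reads in shared bases were dropped is not given, so the low Snrpn count may not show its expression alone.

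Per kilobase of exon, which allows genes to be compared, the mean level over all cells ran from 706 ± 852 CPM per kb for Nnat to 0.0618 ± 0.555 for Grb10. Impact followed Nnat at 29.0 ± 49.8, then Ndn at 22.4 ± 55.0, Sgce at 7.56 ± 17.4 and Peg3 at 5.02 ± 12.4 CPM per kb. Zrsr1 at 3.21, Meg3 at 2.79 and Plagl1 at 2.70 CPM per kb were close together, and Snrpn had 0.257. Every gap between neighbours in this order was smaller than the larger SD of the pair, even that of 677 CPM per kb between Nnat and Impact. For each gene this SD over cells exceeds the mean, so it cannot show whether neighbouring means differ. The order was not tested. The place of Ndn depends on its exon length: with 1986 bases, counted from the RefSeq start at 62348277, in place of 3694 it would have 41.6 ± 102 CPM per kb and stand above Impact.

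A cell carried few of these genes at once. The median cell had 2 of the 10 detected on each plate and no cell had more than 6, with 3 cells at 6 in all. None was detected in 1 cell of plate 3 and 6 cells of plate 2. In 12 cells of plate 3 (13.6%) and 24 cells of plate 2 (14.8%), none of the 9 genes other than Nnat was detected.

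The plates, which the header names alone separate, were set side by side with the log2 ratio of mean CPM, plate 3 over plate 2 and a pseudocount of 1 CPM on each mean, for genes of at least 20 CPM on either plate. Zrsr1 was the 1 of 8 such imprinted genes that differed at least 2-fold, with a log2 ratio of -2.11, beside 12.7% of all 7967 genes tested (7.33% at least 2-fold lower on plate 3 and 5.41% at least 2-fold higher). A share of 1 in 8 is near that background. Zrsr1 stood just inside the level minimum, at 20.1 CPM on plate 2, and when every cell was thinned to 100000 reads it fell out of the count at 19.7 CPM, with a ratio of -2.19. Nnat lay just under 2-fold, at -0.98, with Meg3 at -0.86. With the highest cell of each plate left out, Zrsr1 again fell under the level minimum, at 17.2 CPM on plate 2 with a ratio of -2.61, and Nnat passed at -1.04 in its place. Without cells carrying a neuron marker the ratio of Nnat was -0.72. Plagl1 at 0.58, Peg3 at 0.52 and Sgce at 0.43 had the opposite sign, while Ndn was at -0.01 and Impact at -0.35. The median was -0.18 over the 8 genes and -0.02 over all genes tested. Without neuron-marker cells the signs of Plagl1 (-0.90) and Impact (0.18) turned. Ndn, nearly equal over all cells, was then at -0.57 and Peg3 at 0.07, with Sgce at 0.57, Meg3 at -1.20 and Zrsr1 at -1.66. The imprinted genes therefore had no common direction between the plates, and since no animal is named, plate and animal cannot be told apart.

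Variation between cells was measured as the squared coefficient of variation (CV) of CPM against a loess trend over all genes of the same mean level, on each plate, for genes of at least 20 CPM on both. Nnat stood far above the trend on both plates, at rank 3 of 6381 genes by the lower of its plate values. Its wide spread in these cells was known when the genes were chosen, so this rank describes Nnat and is no independent support. On plate 3 the CV of Nnat was 1.41 and the squared CV 2.97 times the trend. On plate 2 the values were 1.09 and 2.78 times. Its rank was 3 at loess spans of 0.3 and 0.05, in thinned cells and when each plate's highest cell was left out, where the ratios lay between 2.725 and 3.03. Meg3 ranked 51, at 1.78 times the trend on plate 3 and 3.90 times on plate 2, and without its highest cells it fell below the level minimum. Peg3 was at 1.20 and 0.829 times the trend, Ndn at 1.63 and 0.948, Impact at 0.776 and 1.08, and Sgce at 1.12 and 0.932, so each of these 4 lay below the trend on 1 plate. In all, 2 of the 6 ranked imprinted genes, Nnat and Meg3, were above the trend on both plates. Beside 35.7% of all 6381 genes this share is near the background, and the spread of Nnat was known beforehand. The 4 others ranked 2747 (Ndn), 2883 (Sgce), 3830 (Peg3) and 4289 (Impact).

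**Figure D2:**
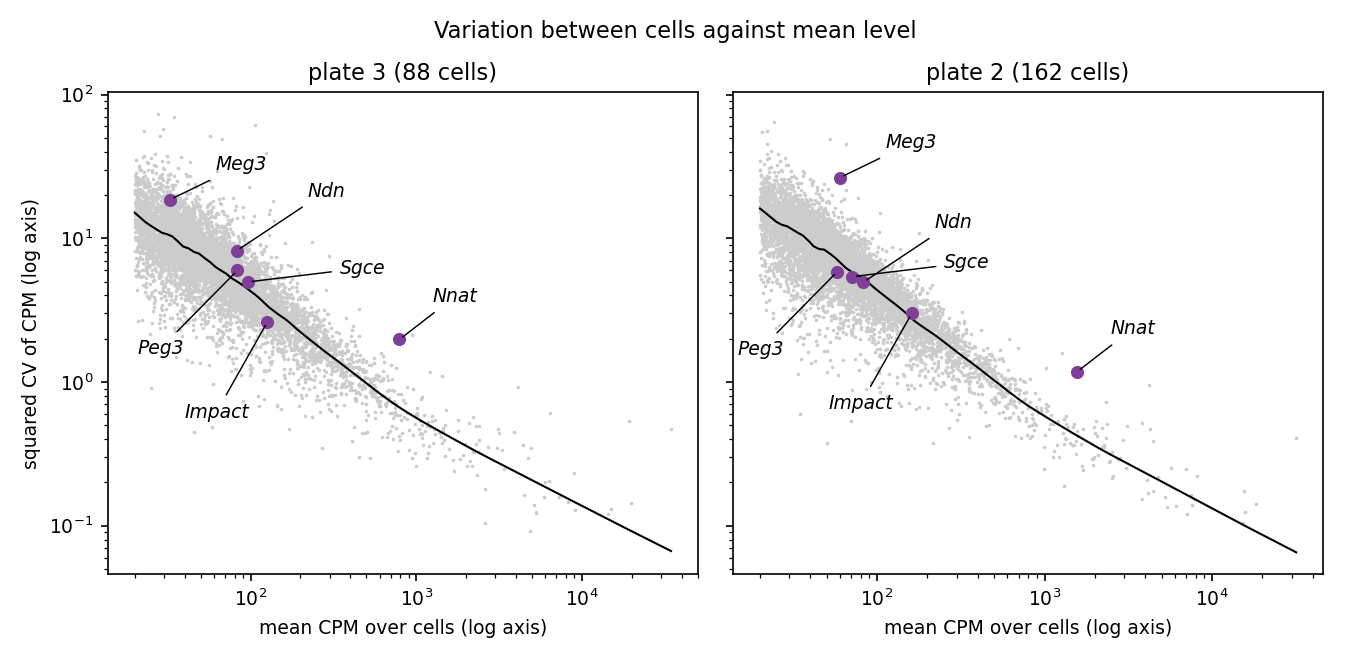
Squared CV of CPM over cells (log axis) against mean CPM (log axis) on plate 3 (left, 88 cells) and plate 2 (right, 162 cells); grey points are all 6381 ranked genes, purple points the 6 ranked imprinted genes and the line is the loess trend. Nnat lies at 2.97 times the line on plate 3 and 2.78 times on plate 2, Meg3 lies above it on both at 1.78 and 3.90 times, Ndn at 1.63 times on plate 3 and 0.948 times on plate 2, and Peg3, Impact and Sgce between 0.776 and 1.20 times.

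No common variation of the imprinted genes was seen. Spearman rho over the cells of each plate was taken for the 6 genes detected in at least 10% of cells on both plates, which gives 15 pairs, all sharing the same libraries, depth and CPM totals. The median rho was -0.0171 over the 88 cells of plate 3 and 0.0465 over the 162 cells of plate 2, beside 0.00735 and 0.00513 over all 22414860 pairs of genes that passed the same filter. The pairs ran from -0.115 to 0.135 on plate 3 and from -0.141 to 0.0987 on plate 2, and 8 of 15 had the same sign on both. No pair reached a rho of 0.2 on both plates, beside 0.0391% of all pairs; against so low a background, 0 of 15 says little by itself. By the mean of the plates the highest pairs were Peg3 with Sgce, at 0.135 and 0.0242, and Peg3 with Ndn, at 0.0915 and 0.0604, and the lowest was Meg3 with Impact, at -0.0979 and -0.141. On plate 2 alone the highest was Nnat with Ndn. Without the 121 cells with a neuron marker the pairs ran from -0.208 to 0.278 on plate 3 and from -0.298 to 0.158 on plate 2, and 0 of 15 went past 0.2 in the same direction on both. Both genes of a pair were detected in the same cell in 14 to 93 cells, and in counts this sparse a weak correlation is no finding.

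**Figure D3:**
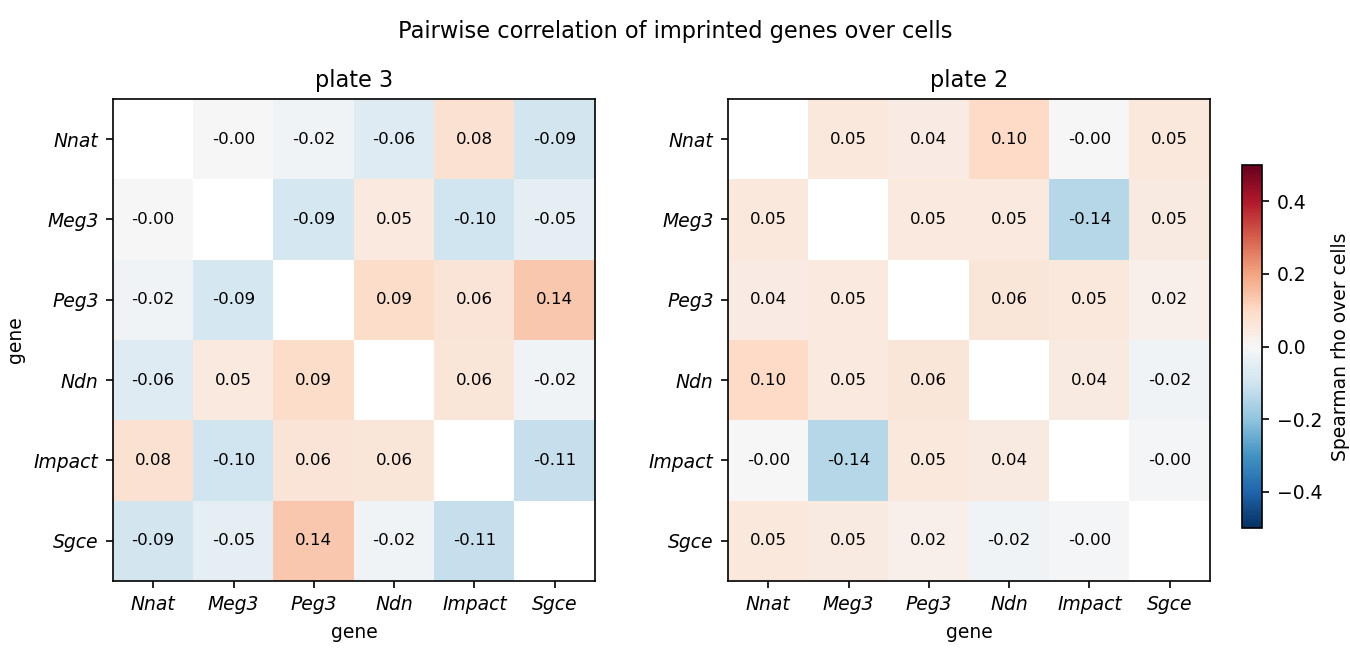
Spearman rho over cells for each pair of the 6 imprinted genes detected in at least 10% of cells, on plate 3 (left, 88 cells) and plate 2 (right, 162 cells); the colour scale and the printed values give rho. No square goes past -0.141 to 0.135, and the Nnat row is as pale as the others.

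None of the other 5 moved with Nnat on both plates. Its rho was -0.0025 and 0.0529 with Meg3, -0.0173 and 0.0416 with Peg3, -0.0635 and 0.0987 with Ndn, 0.0770 and -0.0029 with Impact, and -0.0919 and 0.0536 with Sgce, each time on plate 3 and plate 2. All 5 signs differed between the plates. Without the 121 cells with a neuron marker the rho of Nnat with Meg3 was 0.278 on plate 3 (n = 37) and 0.136 on plate 2 (n = 92). With its host gene Blcap, a gene of a small membrane protein detected in 36.4% and 44.4% of cells, the rho of Nnat was 0.104 and 0.126. Nnat lies inside Blcap on the opposite strand, but by the GENCODE M21 annotation no Nnat exon overlaps a Blcap exon. Strand was not stated for the counting, so any Blcap reads from outside its exons could not be told apart from Nnat there.

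Outside the imprinted genes Nnat had strong partners. Of 6695 genes, 34 (0.508%) had a rho of at least 0.2 with Nnat on both plates and 40 had -0.2 or lower, and Nnat had rank 4 for positive partners among the 866 genes of this filter found in at least 50% of cells. The median gene had 2 positive partners. For the other imprinted genes the counts of positive partners were 2 for Impact and for Sgce (0.0299%), 1 for Peg3 and for Ndn (0.0149%) and 0 for Meg3, at or under that median, although these genes are sparser.

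The gene most like Nnat was Cd9, a tetraspanin membrane protein gene, with a rho of 0.465 on plate 3 and 0.546 on plate 2. Sparc, a secreted matrix protein gene, had 0.462 and 0.543, and Agt, which codes for angiotensinogen, 0.433 and 0.476. Sparc and Agt belong to a list of 15 regional astrocyte genes. Then came the lipid carrier gene Apoe at 0.482 and 0.374, the desaturase gene Scd2 at 0.358 and 0.388, the glutamate transporter gene Slc1a3 at 0.376 and 0.340, and Sparcl1, a relative of Sparc, at 0.336 and 0.501. The list of 10 closed with the receptor gene Adcyap1r1 at 0.329 and 0.333, the peptide-processing enzyme gene Cpe at 0.346 and 0.323, and the neurotrophin receptor gene Ntrk2 at 0.307 and 0.374. Itih3, another gene of the regional list, ranked 11 at 0.287 and 0.411. Of 12 regional astrocyte genes that passed the filter, 3 (Agt, Sparc and Itih3) reached 0.2 on both plates. The transcription factor genes Irx2 and Irx3 did not, at -0.116 and -0.112 and at -0.0278 and -0.0725. Neither did Slc6a11 (0.0326 and 0.140), Mfge8 (0.0631 and 0.287), A2m (0.219 and 0.0816) and Igsf1 (0.0375 and 0.192). Slc6a9 (0.158 and -0.220), Gdf10 (-0.0900 and 0.152) and Nr2e1 (-0.175 and 0.0314) changed sign between the plates. Over the 12 genes, which were not split by region, the median rho was 0.0503 and 0.146, so the list did not move with Nnat as a whole.

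The genes most opposite to Nnat included Htra1, a secreted protease gene, at -0.414 on plate 3 and -0.527 on plate 2. The glutamine transporter gene Slc38a3 had -0.387 and -0.466, the glutamate receptor subunit gene Gria2 -0.406 and -0.383, and Igfbp2, which codes for a binding protein of insulin-like growth factors, -0.375 and -0.435. Of the astrocyte markers, Atp1b2 had -0.291 on each plate and the water channel gene Aqp4 -0.196 and -0.301. Of the 10 astrocyte markers detected in enough cells for the filter, Slc1a3 alone passed 0.2 on both. Gfap, the filament protein gene, was outside the filter with 32 detected cells and had 0.214 and 0.253. Over their whole list, the summed astrocyte markers had a rho of -0.0022 and -0.0649 with Nnat.

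**Figure D4:**
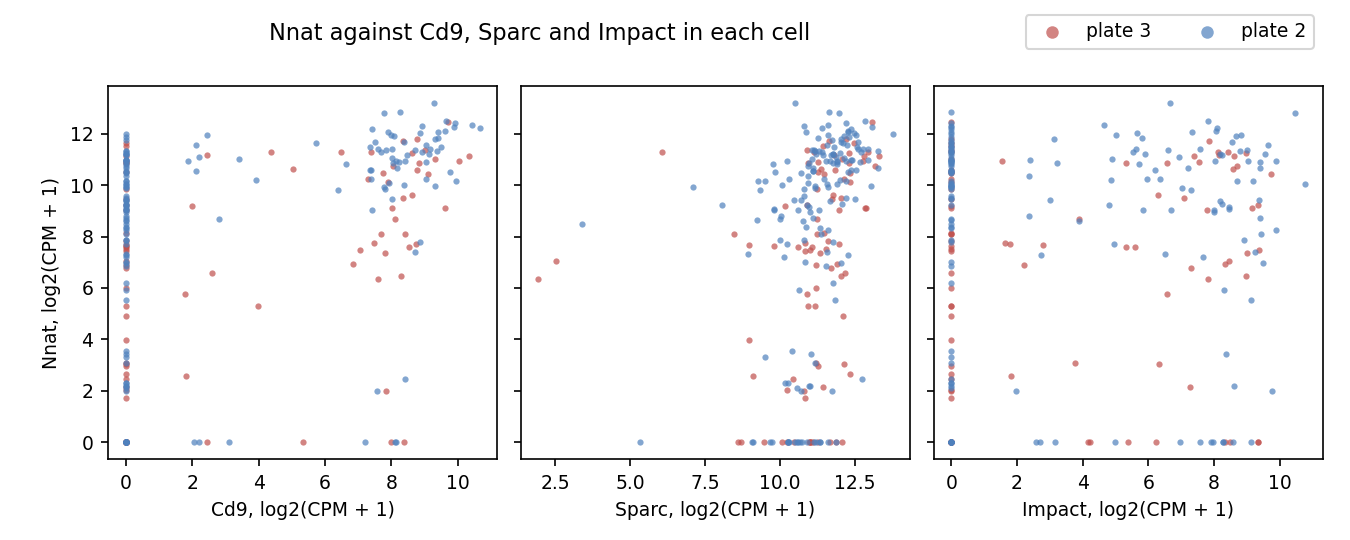
Nnat against Cd9 (left), Sparc (middle) and Impact (right) in each cell, all as log2(CPM + 1), with plate 3 in red and plate 2 in blue; each point is a cell. Cells with more Cd9 or Sparc reach higher Nnat, with a rho of 0.465 and 0.546 for Cd9 on plate 3 and plate 2, while with Impact (0.0770 and -0.0029) no slope is seen.

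The depth of a cell moved with Nnat: its rho with the total count was 0.292 on plate 3 and 0.166 on plate 2, and with the number of genes detected -0.0249 and -0.178. Given both, 9 of the 10 genes most like Nnat were again among the first 10, and in cells thinned to 100000 reads all 10 were. The summed neuron markers had a rho of -0.113 and -0.0528 with Nnat, and those of oligodendrocyte precursors -0.108 and -0.259. For Meg3 the neuron markers had 0.0213 and 0.253. Over the 6 genes and 10 cell type lists, 0 of 60 combinations went past 0.2 in the same direction on both plates.

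The genes most like the other imprinted genes had lower rho. Those of Meg3 were Cnpy3 (0.205 and 0.187), Rdh10 (0.184 and 0.229) and Rad23b (0.182 and 0.175). Those of Peg3 were Cdc42se1 (0.236 and 0.250), Klhdc7a and Slc7a11, and those of Ndn were Fam188a (0.252 and 0.223), Mum1 and Abhd12. Impact had Atp8a1 (0.219 and 0.222), Ube2e1 and Fam181a, and Sgce had Lclat1 (0.248 and 0.298), Slc7a5 and Megf9. No gene stood in 2 of these lists, nor in that of Nnat. Each is the highest of 6695 values, chosen for its size.

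A wider list of genes from imprinted domains, 56 with the 10 included, showed how Nnat stood among its kind. Imprinting of several of these is limited to some tissues or isoforms. Of the 46 others, 39 had reads and 3 were detected in at least 50% of cells, beside 5.92% of all genes with reads. These were Gnas, which codes for a stimulatory G protein subunit, in 218 of 250 cells, Kcnq1ot1, the antisense noncoding RNA of the Kcnq1 domain, in 159, and H13, a signal peptide peptidase gene, in 138. Gnas averaged 499 ± 396 CPM on plate 3 and 458 ± 529 CPM on plate 2, with a squared CV of 0.642 and 1.20 times the trend. Kcnq1ot1 had 450 ± 807 and 317 ± 440 CPM and was 2.98 and 1.25 times the trend. It is annotated as 1 exon of 93092 bases inside Kcnq1 on the opposite strand, and strand was not stated for the counting. Per kilobase its mean over all cells was 3.91 CPM, against 42.2 for Gnas and 24.3 for H13. H13 had 206 ± 241 and 222 ± 280 CPM and was below the trend on both plates. Copg2, the opposite-strand neighbour of the imprinted gene Mest, ranked 11 for variation but was detected in 7 and 23 cells; it was singled out after its value was seen. Of the 14 others with a rank, 4 were above the trend on both plates, beside the 35.7% of all genes.

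Other genes of that list were seen in a minority of cells. The paraoxonase gene Pon2 and the synaptic scaffold gene Ppp1r9a, neighbours of Sgce, were detected in 113 and 98 of 250 cells. The ubiquitin ligase gene Ube3a, a neighbour of Ndn and Snrpn, was detected in 76 cells and the phosphatase gene Inpp5f in 57. Nap1l5, a gene of the nucleosome assembly protein family, averaged 42.4 ± 126 CPM on plate 3 and 150 ± 250 CPM on plate 2 (log2 ratio -1.80). Trappc9, a vesicle transport gene, went the other way, with 110 ± 209 CPM on plate 3 and 38.3 ± 105 CPM on plate 2 (log2 ratio 1.50). Nap1l5 was detected in 14 of 88 and 65 of 162 cells and Trappc9 in 27 of 88 and 31 of 162, so the cells of the plates overlapped for both. Copg2 also differed at least 2-fold, with 21.4 CPM on plate 3 and 46.7 CPM on plate 2 (log2 ratio -1.09). As a background, 12.7% of all 7967 genes tested did so.

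Several neighbours of a detected gene had few or no reads, while others, such as Blcap beside Nnat (104 of 250 cells) and Pon2 beside Sgce (113), were detected more often. Low counts were common among all genes: 8123 of 24490 had no reads, as did 7 of the 46 others of the wider list. The median gene with reads was detected in 8% of cells, and in 4% within those others. Around Meg3, Dlk1 had 14 reads in all, Rian 87 and Mirg 32, while Rtl1 and Dio3 had none. Around Peg3, Usp29 had 49 reads and Zim1 65. Around Ndn, Mkrn3 was detected in 5 cells, Magel2 in 2 and Peg12 in none, and around Sgce, Peg10 was detected in 2 cells and Asb4 and Calcr in none. Ddc, next to Grb10, had 10 reads, and Commd1, the host gene of Zrsr1, was detected in 15 of 88 cells on plate 3 and 20 of 162 on plate 2. The growth genes Igf2, H19 and Cdkn1c of the distal chromosome 7 cluster were detected in 5, 4 and 5 of 250 cells.

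With Nnat, the 12 others that passed the filter had a median rho of 0.0738 on plate 3 and 0.0133 on plate 2, and 0 of 12 reached 0.2 on both plates, beside 0.508% of all genes. Rasgrf1, a Ras exchange factor gene, had the highest lower value, at 0.150 and 0.176, and Ube3a the lowest values, at -0.190 and -0.142. Gnas had 0.106 and 0.0262 and Kcnq1ot1 -0.0115 and -0.0389.

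**Figure D5:**
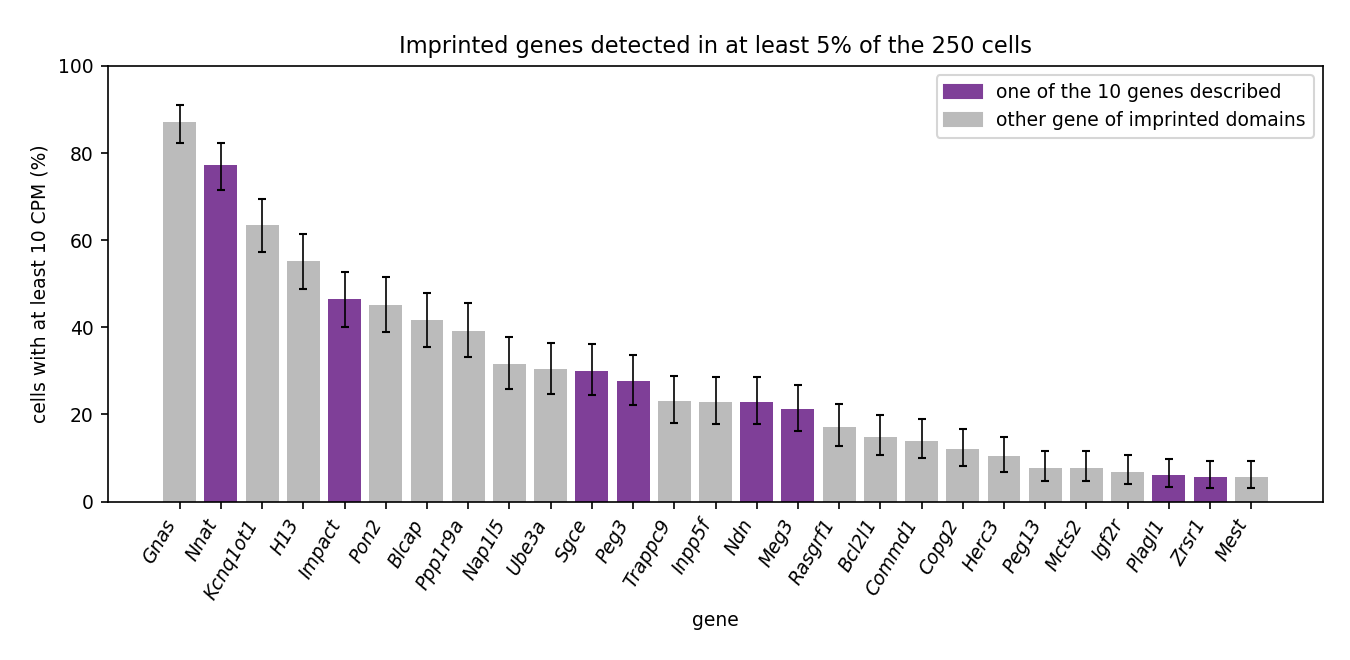
Share of the 250 cells with at least 10 CPM for the imprinted-domain genes with the highest shares; purple bars are genes of the 10, grey bars are other genes of the wider list, and error bars are 95% exact binomial intervals that cover counting error only. Nnat at 77.2% stands second to Gnas at 87.2%, and Plagl1 and Zrsr1 lie near the right end.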

How the data were processed

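The authors' deposited count table holds whole-number read counts per gene and cell, not normalized, per the file's own values. Their second deposited table holds a score, which equals each count rescaled so that cells sum to 500000, and was used only to check this. The submitters' processing notes name STAR 2.4.2a and mm10. Not given in the sources used here are the counting tool, strand, handling of shared reads and the filter on cells. No cell was removed, and no doublet caller was run on these sorted wells. Depth was 102161 to 564958 reads per cell.

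CPM, shares with exact binomial and sums with exact Poisson intervals (95%), squared CV against a loess trend (span 0.1) and Spearman rho within plate were computed with Python 3.11.15, pandas 2.3.3, scipy 1.17.1 and statsmodels 0.14.6. The scripts were tested on simulated data, which does not show that common variation would be found in genes as sparse as these. The trend took genes averaging 20 CPM or more on each plate, and the correlations took genes detected at 10 CPM in 10% of the cells of each plate. Intervals cover counting error only, since PCR copies are not independent molecules. Exon lengths come from GENCODE M21 and promoter windows from RefSeq (GRCm38.p6). The genes, lists and measures were chosen with earlier results of these data known. Named genes are the 10, the 10 most like and 5 most opposite to Nnat by the lower (higher) rho of the plates, the 3 most like each other gene, the 10 of highest mean in the wider list, and domain neighbours, host genes and paralogs; 1 of the 5 most opposite is not reported here. Alternatives were detection thresholds, thinning, pseudocounts, loess spans, Pearson and partial correlation, and leaving out the highest cells or cells with neuron markers. Leaving out cells with 3 markers of another type, and neuron-marker cells for the genes most like Nnat, and the shorter Ndn exon were chosen after the data were seen.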

Additional observations from a re-analysis of the deposited data

How the results depend on the processing

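Of the results that answer a comparison, 25 values under alternatives stayed the same and 3 moved, with 0 reversed. Of these 25, 1 is the same only as a count: without the highest cells 1 gene passed 2-fold between the plates, but it was Nnat in place of Zrsr1. At 1 read, 2 of the 10 genes were in at least 50% of cells. In thinned cells 0 passed 2-fold between the plates, because Zrsr1 fell under the level minimum. Without neuron-marker cells, 5 of the 10 genes most like Nnat (Cd9, Sparc, Agt, Scd2 and Ntrk2) were again among the first 10, in 129 cells and not 250; the cause was not tested. With Pearson correlation 7 were, and without the 40 cells with 3 markers of another type 8. The median pairwise rho lay between 0.0172 and 0.0381 in every alternative, with 0 pairs at 0.2 or at -0.2 on both plates. Neither result could easily move, so their part of the 25 says little. The limit for the median was the gap between the plate medians of -0.0171 and 0.0465, wider than the median of 0.0176 itself. For the pairs, only 0.0391% of all pairs of genes reached 0.2 on both plates. Among single genes, 14 values moved and 138 stayed the same, the moved ones mainly detection shares at other thresholds, such as Sgce at 19.6% with 50 CPM. For mean levels the limit was 1 SD over cells, which is wide, and 5 of 40 means moved over 1.5-fold within it. Those were Meg3 without the highest cells (32.2 CPM) and without neuron-marker cells (25.3 CPM, against 50.5 CPM in all cells), Snrpn in the same settings (0.104 and 0.905 CPM, against 0.556 CPM) and Grb10 without the highest cells (0.122 CPM, against 0.562 CPM). Restricting pairs to genes in 50% of cells of both plates gave no pair, since Nnat alone passes. Snrpn, Grb10, Zrsr1 and Plagl1 were each seen in 15 cells or fewer, so their values rest on few cells. In thinned cells Plagl1 was detected in 6.4% of cells, against 6.0%, Zrsr1 in 6.0%, against 5.6%, Snrpn in 0.80% both times, and Grb10 in 2.4%, against 0.80%. No replicate animals are known. No paired analysis was possible because no test was made and the labels number no replicates across groups.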
